A study of Mus musculus with 7 samples.

Results

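The genes of the major histocompatibility complex (MHC) class I pathway were followed across the cells of the mouse thyroid gland and across thyroid follicular cell organoids (TFCOs), the expanding cultures grown from the follicular cells (TFCs) that make thyroid hormone. The group was chosen by name and holds 9 of the 30879 genes of the deposited table: B2m, H2-D1, H2-K1, Tap1, Tap2, Tapbp, Psmb8, Psmb9 and Nlrc5. All 9 had counts. They were read in 2035 of 2590 cells, those in which at least 1000 unique molecular identifiers (UMIs, 1 per captured transcript) could be recovered. The samples were 2 of primary thyroid tissue, 3 of late passage TFCOs and 2 of early passage TFCOs. Every sample came from wild-type C57BL/6 mice and none was treated. The age of the mice and the number of animals behind each sample are not given in the sources used here. TFCOs had grown in basement membrane extract with R-spondin 3, A83-01, forskolin, EGF and FGF10. Live (DAPI-negative) cells were sorted into 384-well plates, and transcripts were read at their 3' ends by SORT-seq.

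Class I molecules show peptides from inside the cell to CD8+ T cells and natural killer cells on nearly every nucleated cell. Proteasomes cut proteins into peptides, the TAP transporter carries the peptides into the endoplasmic reticulum, and the loading complex places them on a heavy chain paired with beta-2-microglobulin. Interferon-gamma raises the whole set together, in part through the transactivator NLRC5, and class I on thyroid follicular cells is of interest because these cells are the target in autoimmune thyroid disease.

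Levels are given as UMIs per 10000 UMIs of a cell, averaged over the cells of a sample. The kept cells numbered 305 and 273 in tissue, 307, 360 and 242 in the late and 235 and 313 in the early TFCO samples, and the samples held 1406925 to 4703472 UMIs. Tissue cells were divided by clustering into 99 TFC-like cells (50 and 49 in tissue samples 1 and 2), 282 endothelial-like (141 in each), 54 immune-like (30 and 24), 55 mural-like (26 and 29) and 22 stromal-like cells (15 and 7), and 66 cells were set aside. Neither the 9 genes nor the lists of class I-like, peptide loading, proteasome core, regulator and interferon genes used below entered the clustering. The cell type markers and proliferation genes were not left out as lists, and the markers also named the clusters. The TFC-like label was carried by Tg, at 1574.5 and 1111.6 UMIs per 10000 in TFC-like cells, and by Epcam at 3.84 and 3.02. All TFCO cells were kept as 1 class, with Tg at 68.5 to 153.9, Epcam at 3.21 to 6.30 and Pax8 at 3.51 to 6.17 UMIs per 10000. The same 384 well barcodes were used on all plates, so that every barcode was found in at least 2 samples.

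Of the 9 genes, 7 lie together on chromosome 17 in the mouse MHC (GRCm38, GENCODE vM21). From one side to the other these are Tapbp (chr17:33915899-33929292, plus strand), H2-K1 (chr17:33996017-34000347, minus), Psmb9 (chr17:34181987-34187764, minus), Tap1 (chr17:34187553-34197225, plus), Psmb8 (chr17:34197721-34201454, plus), Tap2 (chr17:34203527-34216321, plus) and H2-D1 (chr17:35262730-35267499, plus). B2m lies outside the complex at chr2:122147686-122153083 (plus) and Nlrc5 at chr8:94434356-94527272 (plus). Tap1 and Psmb9 start head to head, and 212 of their exon bases lie over each other on opposite strands. Exons of Tap2 and Psmb8 also lie under the antisense gene Gm20496. Those of Tapbp overlap exons of Zbtb22, on the same strand, and of the antisense gene Gm19412, by up to 904 bases. Strand use in the counting is not given in the sources used here. Whether reads in the overlaps with genes on the opposite strand were told apart is thus not known. The overlap of Tap1 and Psmb9 lies at their 5' starts and not at the captured 3' ends. For Tapbp and Zbtb22, on the same strand, strand use would not separate the reads. H2-D1 and H2-K1 are near copies. Of the 50-base stretches in their exons, 12.8% of those of H2-D1 and 9.63% of those of H2-K1 occur in other genes as well, and in the last 500 bases, next to the captured end, the shares were 9.53% and 0.443%.

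The 3 genes that make the class I molecule itself, the light chain B2m and the heavy chains H2-D1 and H2-K1, are shown by their promoters, because these stretches hold the same order of motifs. Each is the 250 bases before the RefSeq start (GRCm38.p6), printed from 5' to 3' on the strand of the gene: B2m at chr2:122147437-122147686 (plus), H2-D1 at chr17:35262844-35263093 (plus) and H2-K1 at chr17:34000348-34000597 (minus, the first of 2 listed starts). Capitals mark every match, on either strand, to a kB motif (GGGNNNNNCC), an interferon motif (GAAANNGAAA, or the 9-letter form GAANNGAAA), the X2 motif (TGACG) and the Y motif (CCAAT, or ATTGG on the other strand). Overlapping kB matches run together.
B2m: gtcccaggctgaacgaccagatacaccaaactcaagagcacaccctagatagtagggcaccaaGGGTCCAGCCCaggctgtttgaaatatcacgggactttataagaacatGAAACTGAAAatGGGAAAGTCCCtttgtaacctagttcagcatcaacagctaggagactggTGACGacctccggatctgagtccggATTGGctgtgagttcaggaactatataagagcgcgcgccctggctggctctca
H2-D1: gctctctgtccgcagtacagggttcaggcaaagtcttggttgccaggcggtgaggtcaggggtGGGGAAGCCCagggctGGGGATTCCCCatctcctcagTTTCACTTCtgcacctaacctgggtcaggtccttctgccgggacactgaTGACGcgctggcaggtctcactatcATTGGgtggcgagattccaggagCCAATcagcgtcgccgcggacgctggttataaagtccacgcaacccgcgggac
H2-K1: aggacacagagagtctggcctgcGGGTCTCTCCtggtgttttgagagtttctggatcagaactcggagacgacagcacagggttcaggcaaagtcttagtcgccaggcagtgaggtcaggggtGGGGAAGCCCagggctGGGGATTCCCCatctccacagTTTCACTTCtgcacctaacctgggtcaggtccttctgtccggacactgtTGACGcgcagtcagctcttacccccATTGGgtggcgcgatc

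In all 3 promoters the order towards the start was kB, then interferon motif, then X2, then Y, with one more kB match of B2m lying after its interferon motif. In B2m the interferon match GAAACTGAAA began 139 bases before the start, TGACG began at 78 and ATTGG at 53. In H2-D1 the interferon match TTTCACTTC began at 150, TGACG at 101 and ATTGG at 76, with a further Y match (CCAAT) at 53. In H2-K1 the same 3 matches began at 90, 41 and 16. The longest run that H2-D1 and H2-K1 shared letter for letter was 47 bases. Alone these motifs are common. Over the 32851 promoters of this length, 45.8% held the kB motif, 2.98% the 10-letter and 6.31% the 9-letter interferon motif, 17.8% X2 and 33.8% Y. TGACG followed within 40 bases by ATTGG was found in 0.42% (138 promoters), and this pair together with kB and an interferon motif in 10 promoters (0.0304%). Those 10 belong to 9 genes, B2m, H2-D1, H2-K1, the class I-like genes H2-M3 and H2-Q7, and Cdk16, Dnah6, Trim26 and Wdfy2. The 3 printed promoters were picked for their shared order of motifs, so their place among the 10 is set by that choice. The promoters of Tap1 and Psmb9 held kB, X2 and Y but not the X2 and Y pair in this order, that of Tapbp held Y alone and that of Psmb8 held none of the 5 motifs. Tap2 and Nlrc5 had no entry. A match is a description of letters and not of binding.

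**Figure D1:**
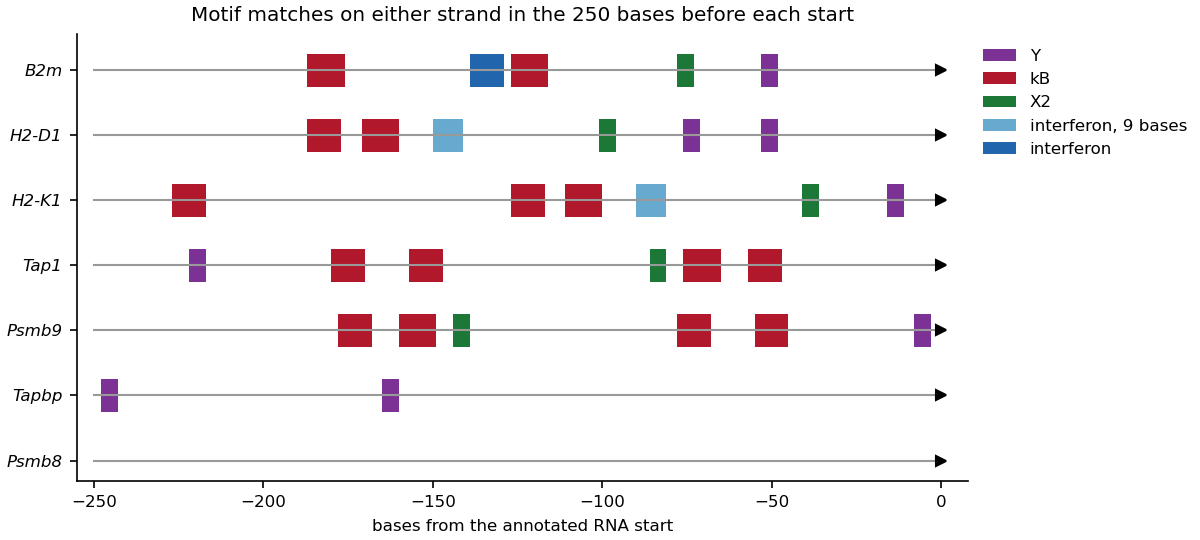
Matches to the 5 motifs on either strand in the 250 bases before the RefSeq start of 7 genes; the x axis is the distance from the start in bases, and each box spans 1 match or overlapping matches. B2m, H2-D1 and H2-K1 each have an interferon motif, X2 and Y in that order, at 139, 78 and 53, at 150, 101 and 76, and at 90, 41 and 16 bases before the start, and Psmb8 has no match.

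The first question was which cells of the gland carry class I transcripts. B2m, which every class I molecule needs, was at 30.2 and 31.8 UMIs per 10000 in immune-like cells of tissue samples 1 and 2 and at 24 and 26.9 in endothelial-like cells. It was at 9.45 and 5.34 in stromal-like, 7.22 and 5.52 in mural-like and 6.17 and 5.30 in TFC-like cells. Both immune-like and both endothelial-like values thus lay apart from all others, whereas the ranges of stromal-like and mural-like cells overlapped, as did those of mural-like and TFC-like cells. The mean of endothelial-like cells was 4.43 times and that of immune-like cells 5.41 times that of TFC-like cells (5.73 ± 0.615, SD, n = 2). The classes come from clusters of the same cells, so these levels are a description without a test.

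The heavy chain H2-D1 was at 17.0 and 17.3 UMIs per 10000 in immune-like, 13.0 and 11.8 in endothelial-like, 4.54 and 6.34 in TFC-like and 3.91 and 5.19 in stromal-like cells. Mural-like cells, the contractile cells around vessels, were lowest at 0.786 and 2.31. The mural-like mean was 0.285 times that of TFC-like cells, and the ranges did not overlap, whereas for B2m the ranges of the same 2 classes overlapped. H2-K1, the other heavy chain, was at 12.3 and 16.4 UMIs per 10000 in immune-like, 10.8 and 11.3 in endothelial-like and 7.51 and 7.07 in TFC-like cells. It was at 1.64 and 3.95 in stromal-like and 2.17 and 2.77 in mural-like cells, and these 2 classes overlapped. Endothelial-like cells exceeded TFC-like cells less for H2-K1 (1.52 times) than for H2-D1 (2.28 times) and B2m (4.43 times). The difference between these folds was not tested.

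**Figure D2:**
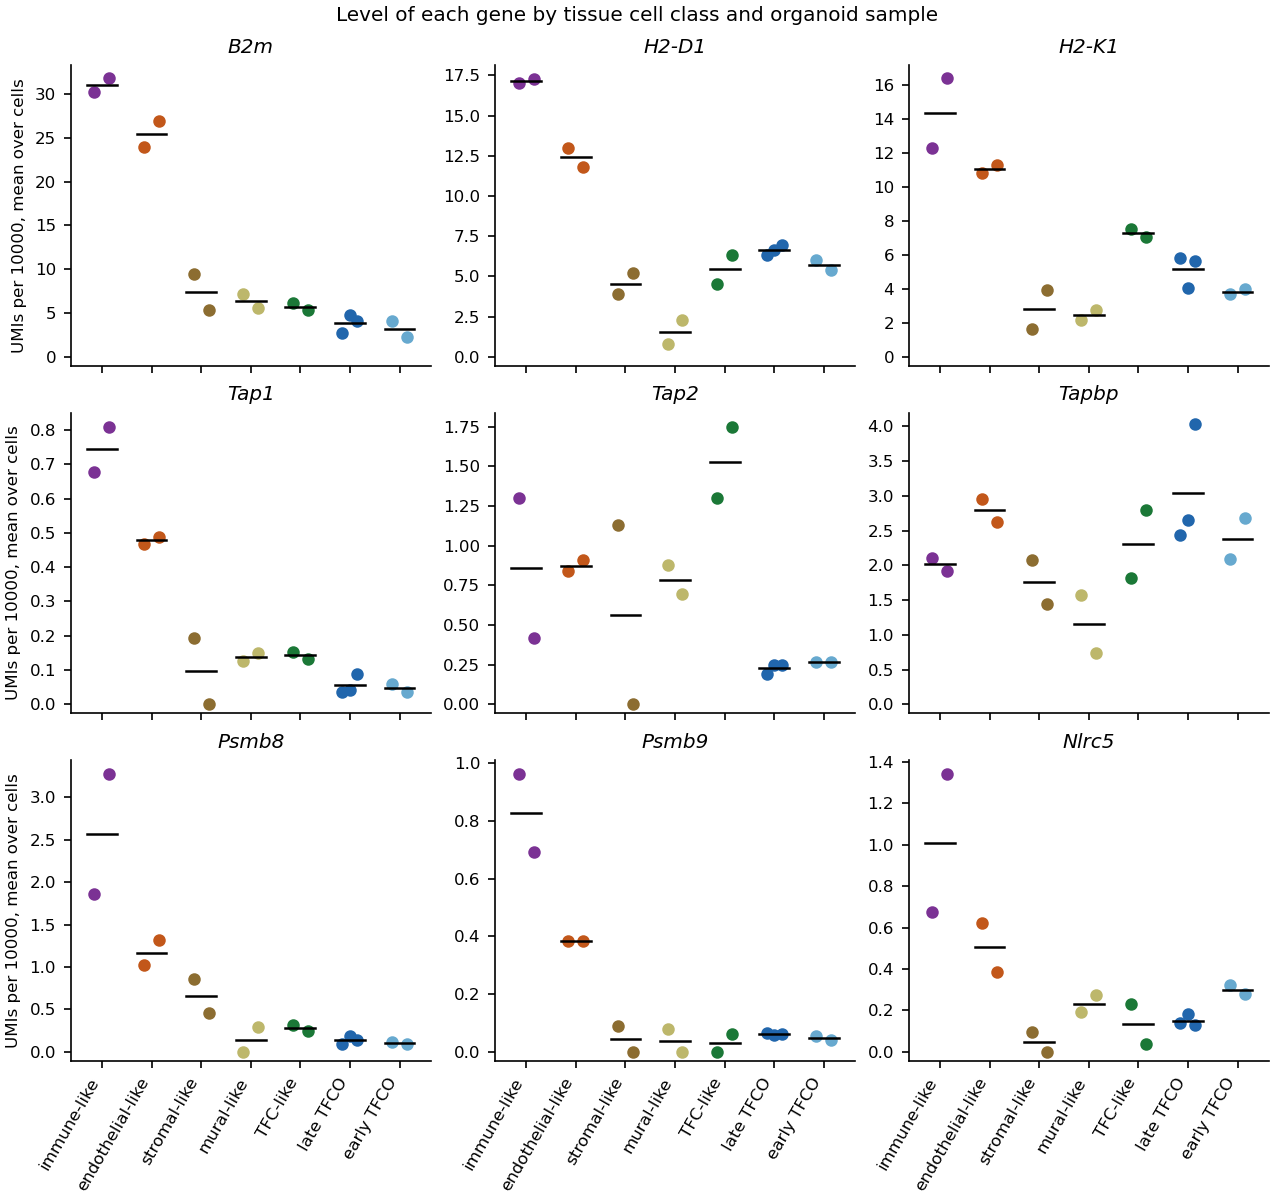
Level of each of the 9 genes in UMIs per 10000 (linear axes of different height), mean over the cells of a sample; points are samples (2 per tissue class, 3 late and 2 early TFCO) and bars are group means. Immune-like and endothelial-like points lie highest for B2m (24 to 31.8), H2-D1, H2-K1, Tap1, Psmb8 and Psmb9, whereas Tap2 is highest on average in TFC-like cells (1.30 and 1.75) and Tapbp overlaps among neighbouring classes.

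The endothelial-like class was not uniform. Its cells fell into 3 clusters, which were led by Igfbp3, Car4 and Esm1 (78 and 89 cells in tissue samples 1 and 2), by Ccl21a, Selp and Lrg1 (17 and 17 cells) and by Gm10719, Gm10715 and Gm10720 (46 and 35 cells). B2m was at 35.2 and 37.1 UMIs per 10000 in the first cluster, 23.6 and 20.8 in the second and 5.28 and 3.83 in the third. In each tissue sample the third cluster was thus below the level of TFC-like cells. H2-D1 followed the same order of clusters, with 17.2 and 15.4, then 16.0 and 11.3, then 4.66 and 3.12 UMIs per 10000, and H2-K1 was at 15.1 and 15.1, 10.1 and 10.2, and 3.84 and 2.00. Pecam1, an endothelial adhesion molecule, was at 15.4 and 13.2 UMIs per 10000 in the first cluster, 12.2 and 10.5 in the second and 7.74 and 7.14 in the third. The 10 leading genes of the third cluster were predicted (Gm) genes, none of them an endothelial marker. From this cluster 32 cells had been set aside, against 6 from the first and 5 from the second. The 10 Gm genes held 814.9 and 800.8 UMIs per 10000 there, against 70.1 to 140.3 in the other 2 clusters. As they were chosen for leading the cluster, this excess was set by the choice. What part these transcripts have in the low class I level was not tested. Over the 141 endothelial-like cells of each tissue sample, which share a library and differ in depth, B2m and H2-D1 correlated at r = 0.781 and 0.713. These values pool the clusters, between which the levels of both genes differ. Within the cluster led by Igfbp3 the correlation was 0.643 and 0.608 in tissue samples 1 and 2. Within the cluster led by Ccl21a it was 0.863 and 0.922, and within that led by Gm10719 it was 0.649 and 0.0895. In the other tissue classes, with 7 to 50 cells each, it was 0.519 and 0.541 in immune-like, 0.676 and 0.277 in stromal-like, 0.0777 and 0.127 in mural-like and 0.0443 and 0.161 in TFC-like cells. Within the 5 TFCO samples (235 to 360 cells) the same correlation was 0.0728 to 0.234. In sparse counts values as weak as those of TFC-like and mural-like cells and TFCOs are not read as a relation. The same holds for the Gm10719 cluster in tissue sample 2.

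**Figure D3:**
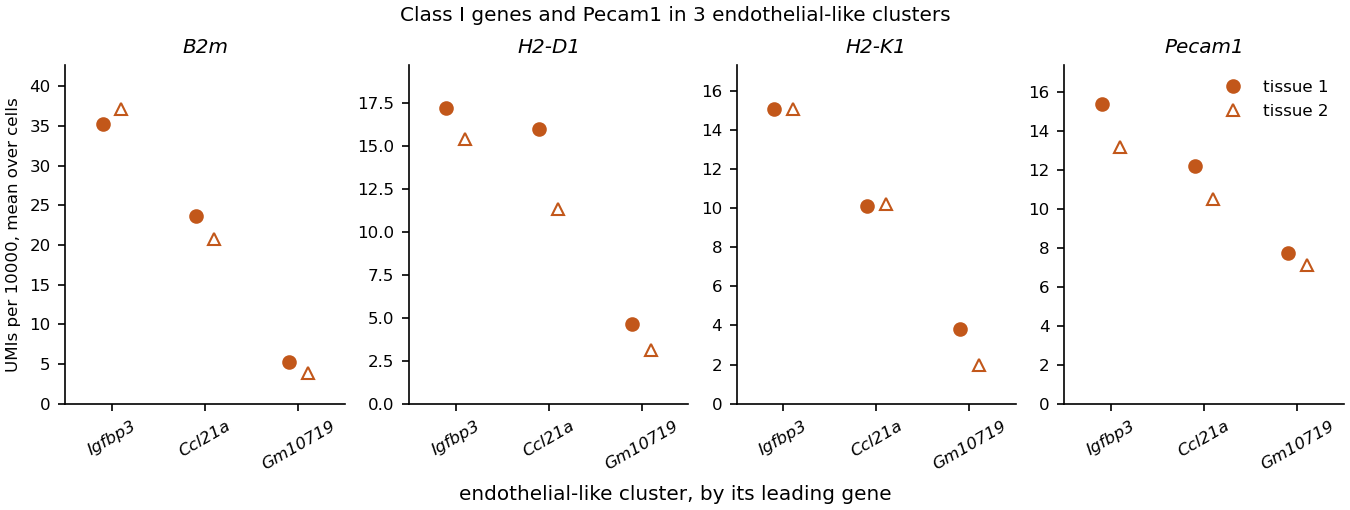
Level of B2m, H2-D1, H2-K1 and Pecam1 (UMIs per 10000, linear axes from 0) in the 3 endothelial-like clusters, named on the x axis by their leading gene; filled circles are tissue sample 1 and open triangles tissue sample 2. B2m goes from 35.2 and 37.1 in the Igfbp3 cluster to 5.28 and 3.83 in the Gm10719 cluster, while Pecam1 goes from 15.4 and 13.2 to 7.74 and 7.14.

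Among the genes that supply and load peptides, Psmb8 and Psmb9, inducible subunits of the proteasome, were highest in immune-like and endothelial-like cells. Psmb8, which takes the place of the catalytic subunit Psmb5 in immunoproteasomes, was at 1.86 and 3.27 UMIs per 10000 in immune-like and 1.02 and 1.32 in endothelial-like cells. It was at 0.319 and 0.242 in TFC-like cells, which rest on 4 UMIs in 3 of 50 cells and 23 UMIs in 5 of 49 cells. The mean of endothelial-like cells was 4.18 times and that of immune-like cells 9.14 times the TFC-like mean, without overlap. Psmb9, the inducible partner of Psmb6, was at 0.962 and 0.692 UMIs per 10000 in immune-like and 0.383 in endothelial-like cells of both samples. In TFC-like cells it was at 0.0605 in tissue sample 2, which rests on 15 UMIs in 3 of 49 cells. No UMI was found in the 50 cells of tissue sample 1, which allows up to 6.0% of cells with a UMI (3 counts in 50 cells, counting error only).

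The transporter subunit Tap1 followed the same order, with 0.678 and 0.81 UMIs per 10000 in immune-like, 0.467 and 0.489 in endothelial-like and 0.154 and 0.133 in TFC-like cells. The TFC-like values of Tap1 rest on 1 and 17 UMIs and overlapped with those of mural-like cells (0.126 and 0.151). Tap2, the other subunit of the same transporter, did not follow this order. It was at 1.30 and 1.75 UMIs per 10000 in TFC-like, 0.838 and 0.909 in endothelial-like and 1.30 and 0.417 in immune-like cells. The TFC-like mean was highest, and the TFC-like and immune-like ranges overlapped. In the TFC-like cells with fewer UMIs of other cell types Tap2 was at 1.25 and 0.673, the second below both endothelial-like values. Its level also follows the well barcode, as described below. Tapbp (tapasin), which bridges the transporter and the heavy chain, was at 2.96 and 2.62 UMIs per 10000 in endothelial-like, 1.82 and 2.79 in TFC-like and 2.11 and 1.92 in immune-like cells, and every pair of neighbours in its order of levels overlapped. Nlrc5, the transactivator of class I promoters, was low throughout, at 0.674 and 1.34 UMIs per 10000 in immune-like, 0.624 and 0.384 in endothelial-like and 0.23 and 0.0398 in TFC-like cells.

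Across the 10 tissue profiles (5 classes in 2 samples) and the 5 TFCO samples, the 6 members that passed the filter on low values were set against each other. The correlation of a member with the mean of the other 5 was 0.755 for B2m, 0.78 for H2-D1, 0.81 for H2-K1 and 0.734 for Psmb8, against 0.21 for Tap2 and 0.186 for Tapbp. Psmb8 passed the filter mainly through immune-like and endothelial-like cells (means 2.56 and 1.17 UMIs per 10000), where B2m, H2-D1 and H2-K1 are high too. Its correlation is thus in part set by the filter, which left out Tap1, Psmb9 and Nlrc5. Among 4790 other genes, the pattern most like the mean of the 6 was that of Ly6e (r = 0.919), followed by Srgn (0.915), Pdgfb (0.907), Arpc3 (0.886), H2-T23 (0.849), Irak2 (0.843), Ptpre (0.832) and Sec14l1 (0.82). Ly6e, a surface protein, was at 20 UMIs per 10000 in endothelial-like, 13.1 in immune-like, 5.46 in TFC-like and 2.86 in TFCO cells. H2-T23 encodes the non-classical class I molecule Qa-1 and was at 2.44 and 1.74 in endothelial-like, 2.88 and 3.12 in immune-like and 0.194 and 0.573 UMIs per 10000 in TFC-like cells. These 15 profiles share libraries, so the correlations are descriptions.

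The next comparison asked whether follicular cells keep their class I transcripts in culture. TFCO samples were compared with the TFC-like cells of the 2 tissue samples with limma on log2(level + 1), fitted across all genes with a mean level of at least 0.5. Of the 9 members 5 passed this filter, and 1 of them, Tap2, differed at an adjusted p under 0.05. Tap2 passed the filter only through its tissue values of 1.30 and 1.75 UMIs per 10000, as TFCO values were 0.19 to 0.268. With every gene tested, without the filter, its limma adjusted p was 0.0109, where 2.60% of all 30751 genes passed. Over all 4320 genes tested, 29.0% passed the threshold, 22.3% higher and 6.67% lower in TFCOs, with a median log2 difference of 0.22. Against this background a count of 1 in 5 members is no result about the group. The median log2 difference of the 5 was -0.61. Every sample of one group lay apart from the other group for B2m, H2-K1 and Tap2, each lower in TFCOs, and 51.0% of all genes tested were separated in this way (10.9% lower in TFCOs). Tissue TFC-like cells had fewer UMIs per cell (medians 2331 and 1989) than TFCO cells (medians 5011 to 12380.5).

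B2m was at 6.17 and 5.30 UMIs per 10000 in TFC-like cells of the gland, at 2.75, 4.79 and 4.06 in the late TFCOs and at 4.03 and 2.26 in the early ones. All 5 TFCO values lay below both tissue values, the nearest at 4.79 against 5.30. The log2 difference was -0.61 (SE 0.34, 95% interval -1.34 to 0.12, limma adjusted p = 0.187), which did not pass the threshold, nor did it under any of 23 alternatives (adjusted p 0.0564 to 0.362). H2-K1 was at 7.51 and 7.07 UMIs per 10000 in tissue, at 5.78, 4.04 and 5.62 in the late and at 3.68 and 3.96 in the early TFCO samples. Again all TFCO values were lower, with a log2 difference of -0.61 (SE 0.29, 95% interval -1.25 to 0.02, limma adjusted p = 0.128). It passed the threshold in 1 of 23 alternatives, with equal sample weights (adjusted p 0.0302, over the alternatives 0.0302 to 0.409).

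H2-D1 was at 4.54 and 6.34 UMIs per 10000 in tissue, at 6.35, 6.64 and 6.96 in the late and at 6.03 and 5.39 in the early TFCO samples. The early values lay between the 2 tissue values, and the late values above the higher one. The log2 difference was 0.17 (SE 0.28, 95% interval -0.45 to 0.78, limma adjusted p = 0.684), and it was -0.04 without tissue sample 1 and -0.02 with samples centred on their median gene. Tapbp was at 1.82 and 2.79 UMIs per 10000 in tissue, at 2.43, 2.65 and 4.03 in the late and at 2.09 and 2.68 in the early TFCO samples, and the groups overlapped (log2 difference 0.16, SE 0.28, 95% interval -0.44 to 0.77, limma adjusted p = 0.678). It too turned to -0.05 without tissue sample 1 and to -0.02 with centring.

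Tap2 was at 1.30 and 1.75 UMIs per 10000 in TFC-like cells of the gland, at 0.19, 0.247 and 0.246 in the late and at 0.265 and 0.268 in the early TFCO samples. Both tissue values lay far above the 5 TFCO values, whose mean was 0.243 ± 0.0314 (SD, n = 5). Tap2 was lower in TFCOs by a log2 difference of -1.01 (SE 0.14, 95% interval -1.31 to -0.72, limma adjusted p = 0.000606), and the ratio of the mean levels, tissue over TFCO, was 6.26. The threshold was passed in all 22 alternatives in which Tap2 was tested (log2 difference -2.22 to -0.80, limma adjusted p at most 0.0109). The largest difference came with a pseudocount of 0.1. Except in the fit without the filter (limma adjusted p = 0.0109), Tap2 was tested only because of its tissue level. Those calls are thus conditional on the group in which it is high. The log2 difference was -1.14 without tissue sample 1, -0.88 without tissue sample 2 and -1.03 without the deepest TFC-like cells, of which 1 in tissue sample 2 held 268847 UMIs. Tap2 follows the well barcode (correlation 0.242 between TFCO cells of different samples), and with TFCO cells of the barcodes found in tissue TFC-like cells the log2 difference was -1.06 (limma adjusted p = 0.00064). The tissue values rest on 18 and 85 UMIs in 12 of 50 and 15 of 49 cells. With every cell thinned to 1000 UMIs, a Tap2 UMI was found in 6.0% (exact 95% interval 1.25 to 16.5) and 14.3% (5.94 to 27.2) of these cells of tissue samples 1 and 2 and in 1.11% to 2.55% of the cells of the TFCO samples, and the log2 difference was -1.0 (limma adjusted p = 0.00555).

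Other cell types left a trace in the tissue TFC-like cells. Their 12 endothelial markers summed to 8.33 and 11.9 UMIs per 10000, against 150.5 and 145.6 in endothelial-like cells and 1.42 to 2.59 in TFCOs, and their 15 immune markers to 2.79 and 2.48 against 0.266 to 1.02 in TFCOs. Of the endothelial markers in TFCOs, Cldn5 was at 0 and Ly6c1 at 0 to 0.0212 UMIs per 10000, while Pecam1 was at 0.49 to 0.981 and Flt1 at 0.399 to 0.769, against 1.75 and 1.65 and 1.8 and 2.05 in the TFC-like cells of the gland. Of the immune markers, Lyz2 was at 0 to 0.00369 UMIs per 10000, and the highest was Csf1r with 0.0722 to 0.489. In the TFC-like cells with the fewer UMIs of other cell types (25 cells of each tissue sample), B2m was at 6.33 and 5.19 and H2-K1 at 7.28 and 9.05 UMIs per 10000, above all TFCO samples. Only 1 and 2 TFC-like cells of tissue samples 1 and 2 held no such UMI, so most of the selected cells still carried the trace. What part the trace has in the B2m and H2-K1 levels was not tested. The 28 mitochondrial genes summed, per 10000 UMIs, to 1057.2 and 895.6 in the TFC-like cells of the gland and to 450.9 to 729.8 in TFCOs, and the part of this in the differences was not tested. Tap2 was at 1.25 and 0.673 in the cells with fewer UMIs of other types, above all TFCO samples but under the filter, so that it was not tested there, and Tap1 was at 0 in both.

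The 4 members under the filter were Tap1, Psmb8, Psmb9 and Nlrc5. Psmb8 was at 0.319 and 0.242 UMIs per 10000 in TFC-like cells of the gland, at 0.0882, 0.192 and 0.142 in the late and at 0.12 and 0.0934 in the early TFCO samples. Tap1 was at 0.154 and 0.133 in tissue, at 0.0364, 0.0423 and 0.0893 in the late and at 0.0591 and 0.0365 UMIs per 10000 in the early TFCO samples. For both genes all TFCO values lay below both tissue values (exact two-sided permutation p = 0.0476, the smallest that 5 against 2 samples allow). Of the 4320 genes over the filter 51.0% were separated in this way (10.9% lower in TFCOs), so this separation is no result about the 2 genes. The share among genes under the filter was not counted. In the tissue TFC-like cells with fewer UMIs of other types Psmb8 was at 0.249 and 0.19, the latter below late sample 2, and Tap1, at 0 in both, was below all TFCO samples. With every gene tested by limma, neither passed the threshold (adjusted p 0.191 and 0.208, where 2.60% of all 30751 genes passed). Psmb9 (0.0605 or less in tissue, 0.0409 to 0.0668 UMIs per 10000 in TFCOs) and Nlrc5 (0.23 and 0.0398 in tissue, 0.132 to 0.321 in TFCOs) overlapped between the groups, with limma adjusted p of 0.505 and 0.419.

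**Figure D4:**
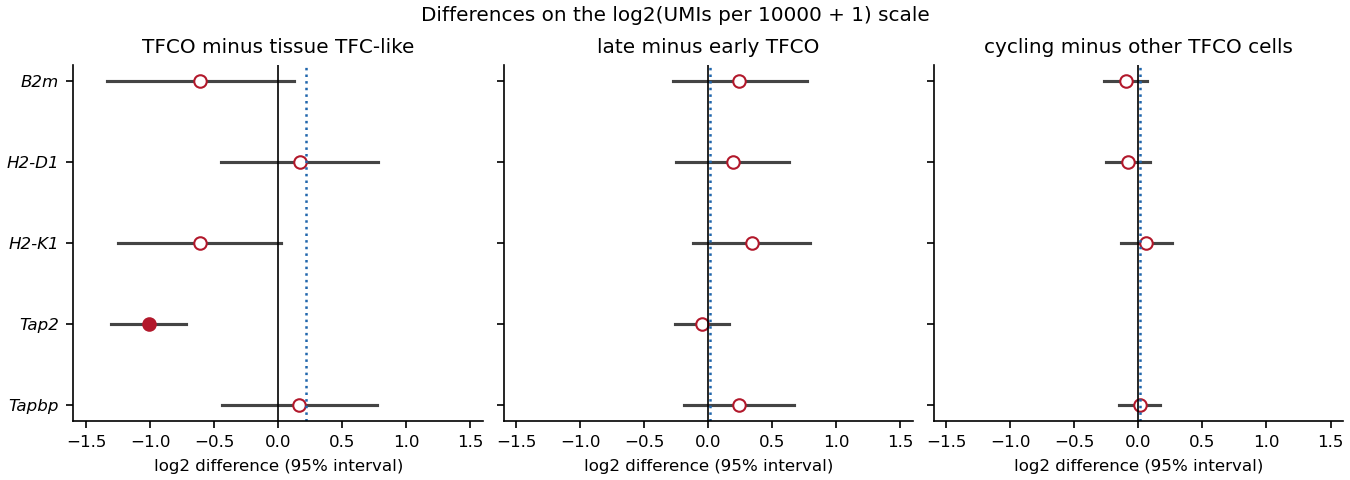
Log2 difference of the tested members for TFCO minus tissue TFC-like cells, late minus early TFCO, and cycling minus other TFCO cells, on the log2(UMIs per 10000 + 1) scale; bars are 95% intervals, filled points passed a limma adjusted p of 0.05, and the dotted line is the median of all genes tested. Tap2, at -1.01 (-1.31 to -0.72) in TFCO minus tissue, is the 1 filled point. It passed the filter there only through its tissue level, and it was under the filter in the third comparison.

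Around the members, other genes of the pathway were counted. Of 14 genes for peptide supply and loading, 7 were tested, of which 2 were lower, 1 was higher and 4 did not pass, with a median log2 difference of 0.21. Over all genes tested 29.0% passed (22.3% higher and 6.67% lower), with a median of 0.22. The 2 lower genes are chaperones of the endoplasmic reticulum that take part in loading and also fold other proteins. Pdia3 (ERp57) was at 11 ± 1.93 UMIs per 10000 in tissue (SD, n = 2) and 1.63 ± 0.394 in TFCOs (SD, n = 5), a log2 difference of -2.22 (SE 0.26, limma adjusted p = 0.00028). Calr (calreticulin) was at 21.8 ± 2.82 and 5.94 ± 2.05 (log2 difference -1.79, SE 0.40, limma adjusted p = 0.00823). Lnpep, an aminopeptidase of endosomes, was the higher one, at 0.299 ± 0.00716 in tissue and 1.3 ± 0.197 UMIs per 10000 in TFCOs (log2 difference 0.83, SE 0.17, limma adjusted p = 0.00605).

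Of the 14 subunits of the 20S core, the part of the proteasome that cuts proteins, 10 were tested and 4 were higher in TFCOs, none lower, with a median log2 difference of 0.40, against 22.3% higher, 6.67% lower and a median of 0.22 over all genes tested. The 4 were Psma1 (0.61), Psmb4 (0.70), Psma5 (0.52) and Psmb1 (0.59), with limma adjusted p of 0.0193, 0.0249, 0.0424 and 0.0498, the last close to the threshold. Psmb6 and Psmb7, the catalytic subunits that the inducible ones replace, were at log2 differences of 0.14 and 0.40 (limma adjusted p 0.557 and 0.108). Of 25 regulators and interferon signalling genes 4 were tested, and Jak1, a kinase of the interferon receptors, was higher in TFCOs (2.05 ± 0.356 against 0.807 ± 0.0514 UMIs per 10000, log2 difference 0.72, limma adjusted p = 0.0185). Irf1 and Rfx5 were under the filter, at 0.219 and 0.176 UMIs per 10000 in TFCOs. Of 42 interferon response genes only Samhd1 and Ifi27 were tested, and neither passed the threshold (log2 difference -0.14 and -0.22, limma adjusted p 0.509 and 0.586). None of the 17 class I-like genes reached the filter.

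Late and early TFCOs were then compared to see whether the pathway changes with passage. Over all 4320 genes tested with limma, 1 gene (0.0231%) passed the threshold, and no member did (0 of 5 at an unadjusted p under 0.05). Of these 5, Tap2 entered through its tissue level, with means of 0.228 in late and 0.267 UMIs per 10000 in early TFCOs. H2-D1 was higher in all 3 late samples (6.35 to 6.96 UMIs per 10000) than in both early samples (6.03 and 5.39), and H2-K1 likewise (4.04 to 5.78 against 3.68 and 3.96), whereas Tap2 was lower in all 3 late samples and B2m and Tapbp overlapped. Among all genes tested 42.5% were separated in this way. No member passed the threshold either when genes under the filter were tested, where 0.00325% of all genes did. The log2 difference, late minus early, was 0.19 for H2-D1 (95% interval -0.25 to 0.63), 0.34 for H2-K1 (-0.12 to 0.79), 0.24 for B2m (-0.28 to 0.77), 0.24 for Tapbp (-0.19 to 0.67) and -0.05 for Tap2 (-0.26 to 0.16), with limma adjusted p of 0.602, 0.358, 0.575, 0.497 and 0.809. B2m turned to -0.07 without early sample 2. Nlrc5 was at 0.139, 0.182 and 0.132 UMIs per 10000 in the late and at 0.321 and 0.279 in the early TFCO samples, every late sample below both early ones (exact two-sided permutation p = 0.1, the smallest that 3 against 2 samples allow). With every gene tested its log2 difference was -0.18 (limma adjusted p = 0.389, unadjusted 0.0334). Nlrc5 also follows the well barcode (correlation 0.3502).

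Cycling TFCO cells, defined by UMIs of at least 3 of 10 proliferation genes, were compared with the other cells of the same sample. They made up 8.14% to 43.8% of the cells (25, 131 and 49 cells in late and 103 and 34 in early samples) and were deeper, with medians of 10567 to 19391 UMIs against 4505 to 11506. The share was 36.4% in late sample 2 and 43.8% in early sample 1, the deepest samples (medians 12380.5 and 11059 UMIs). In the others it was 8.14% to 20.2% (medians 5011 to 8954). The rule was applied at full depth, so these shares depend on depth. What part depth has in the contrast was not tested. With limma and the sample as a term, 4.17% of 4703 genes passed the threshold (2.98% higher and 1.19% lower in cycling cells), and none of the 4 members tested did (0 of 4 at an unadjusted p under 0.05). B2m was lower in cycling cells in 4 of 5 samples, at 2.61, 4.44 and 3.31 in late and 3.72 and 2.59 UMIs per 10000 in early samples, against 2.76, 5, 4.25, 4.28 and 2.21 in the other cells. Early sample 2 was the exception. The log2 difference, cycling minus other, was -0.10 for B2m (95% interval -0.27 to 0.07), -0.08 for H2-D1 (-0.25 to 0.09), 0.06 for H2-K1 (-0.14 to 0.26) and 0.01 for Tapbp (-0.15 to 0.17), with limma adjusted p of 0.554, 0.634, 0.761 and 0.969. H2-D1 was higher in cycling cells in 2, H2-K1 in 3 and Tapbp in 2 of 5 samples. Of the 20S core 1 of 11 subunits tested was higher in cycling cells, Psma5 (log2 difference 0.31, limma adjusted p = 0.0354), while 8 of the 8 tested proliferation genes, which define the class, were higher.

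The balance between the chains was described last, as ratios of levels within a sample. B2m per H2-D1 was 1.78 and 1.84 in immune-like and 1.85 and 2.28 in endothelial-like cells, 1.36 and 0.836 in TFC-like cells, 0.433, 0.721 and 0.583 in the late and 0.668 and 0.419 in the early TFCO samples. All 5 TFCO values thus lay below all other classes, the nearest being tissue sample 2 of the TFC-like cells. In mural-like cells the ratio was 9.19 and 2.39, the first resting on 11 UMIs of H2-D1. H2-K1 per H2-D1 was 1.65 and 1.12 in TFC-like cells and 0.608 to 0.91 in TFCOs, without overlap between these groups. The TFCO range did overlap with endothelial-like (0.831 and 0.958), immune-like (0.724 and 0.948) and stromal-like cells (0.419 and 0.761). Mural-like cells were at 2.76 and 1.2. The ratios were chosen after the levels had been seen and were not tested.

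**Figure D5:**
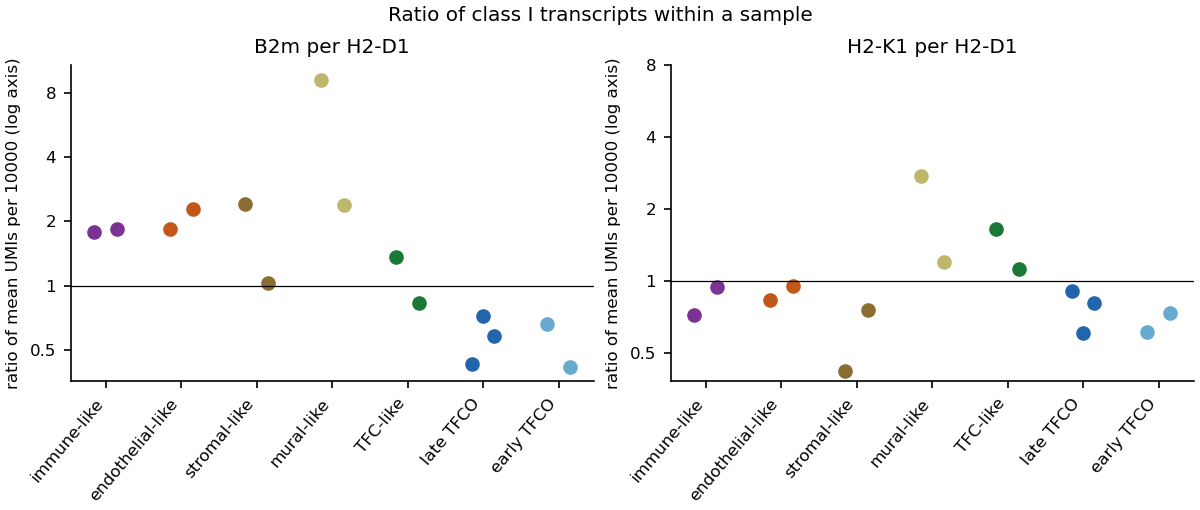
Ratio of the mean levels of B2m to H2-D1 and of H2-K1 to H2-D1 within each sample (log axes; the line marks a ratio of 1), for the 5 tissue classes and the late and early TFCO samples, 1 point per sample. In the first panel the TFCO points lie at 0.419 to 0.721, below all tissue points. In the second they lie at 0.608 to 0.91, below the 2 TFC-like points at 1.65 and 1.12 but overlapping with endothelial-like, immune-like and stromal-like points.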

How the data were processed

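Single-cell libraries of 2 tissue, 3 late and 2 early TFCO samples were sequenced by SORT-seq, with groups taken from the labelled passage stage. The series text names 2 biological replicates a description, while the labels list 3 late samples, and all 7 were used. The processing notes of the submitters name Trim Galore 0.4.3, STAR 2.5.3a, Seurat and GRCm38 (mm10), while the annotation, strand use and cell filter are not given in the sources used here. The authors deposited 1 table of natural log values, ln(1 + UMIs per 10000 UMIs of a cell). The log was undone, and dividing by the smallest value of each cell gave whole UMIs for 100% of non-zero values (tolerance 0.01). The 9 genes and all gene lists were chosen with earlier results of these data known.

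Cells of at least 1000 UMIs were kept. Tissue cells were clustered with scanpy 1.11.5 and igraph 0.11.9 (2000 variable genes, 30 components, 15 neighbours, Leiden at resolution 1). The members, the lists of related genes and genes whose level follows the well barcode (correlation above 0.05) were left out. The marker and proliferation lists were not left out as such. Clusters were named from marker lists, and cells scoring as C cells, parathyroid or erythroid cells were set aside, a rule made after clusters had been seen. No doublet caller was run, since 1 cell was sorted per well. Sample means were compared as log2(mean UMIs per 10000 + 1) by limma 3.58.1 (R 4.3.3; empirical Bayes with a trend, 3 groups in one fit, estimated weights of 0.475 for tissue and 1.35 for organoid samples). Genes entered if the group means averaged 0.5 or more, and the threshold was a Benjamini-Hochberg adjusted p of 0.05. Where a tissue sample was left out, weights were equal and the lone sample is assumed to vary like the others. Cycling cells were compared within samples, with equal weights. Members under the filter had an exact two-sided permutation test. The fit was tested on simulated data. UMIs count captured transcripts at the 3' end, so levels of different genes are compared only as ratios between samples. All members are named. Of each other list the up to 4 genes with the smallest p in TFCO against tissue are named, besides Psmb5, Psmb6, Psmb7, Psmb10, Irf1 and Rfx5 (one more gene of this rule is not reported here), and the 8 genes of most similar pattern. Psma5 in cycling cells was named after its value was seen. Alternatives changed the cell minimum, pseudocount, filter, weighting, scaling, depth, cluster resolution and samples. Promoters were read from the RefSeq table.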

Additional observations from a re-analysis of the deposited data

Results flagged for a closer look

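Of the 9 members, 2 followed the barcode of the well, a readout outside the comparisons. Between TFCO cells of different samples with the same barcode (2238 pairs), the correlation was 0.242 for Tap2 and 0.3502 for Nlrc5, against at most 0.0467 for the other 7 members, and 4174 of 19498 genes lay above 0.05. The 20 barcodes with the most Tap2 UMIs held 40.1% of the 309 Tap2 UMIs of TFCOs on 5.63% of the cells, and the corresponding share was 54.7% of 285 UMIs for Nlrc5, 13.6% for B2m and 14.2% for H2-D1. Tap1, Psmb8 and Psmb9, with 76 to 219 UMIs, had 35.2% to 48.8% without such a correlation. Tissue cells of those Tap2 barcodes were at 2.75 UMIs per 10000 (27 cells), against 0.832 in the other 551, and only 2 of the 27 were TFC-like. With the TFCO cells limited to the barcodes of the tissue TFC-like cells (54 to 82 cells a sample), an alternative chosen after seeing the data, Tap2 in TFCO minus tissue had a log2 difference of -1.06 (limma adjusted p = 0.00064). What part the barcodes have in the remaining difference was not tested.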

How the results depend on the processing

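In TFCO against tissue TFC-like cells, 109 of 114 values of single members kept their direction and their side of the threshold, in late against early TFCOs 82 of 84, and in cycling against other cells 40 of 52. All of the 40 tissue levels checked at other cluster resolutions moved by less than 1 SD between samples. Tap2 was the 1 member called in 21 of 23 alternatives of the first comparison. With equal weights 2 members were called (H2-K1 added), and with TFC-like cells of fewer UMIs of other cell types, chosen after seeing the data, 0 of 4 were, since Tap2 was then under the filter. Leaving out any sample gave 1 to 1 member. The directions of H2-D1 and Tapbp turned with centring on the median gene (-0.02 and -0.02), and over left-out samples they ran from -0.04 to 0.37 and -0.05 to 0.38, both turning without tissue sample 1.

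All genes called in that comparison numbered 1253 (965 higher, 288 lower in TFCOs). The number was 688 with at least 2000 UMIs per cell, 801 without the filter, 153 with UMIs summed over cells (80 higher, 73 lower), 806 with centring (381 higher, 425 lower), 1949 with equal weights, 730 with thinned cells, 458 with TFC-like cells of fewer UMIs of other types, and 916 to 1835 over left-out samples. Centring moved the median log2 difference from 0.22 to 0.03. In late against early TFCOs, 1 gene was called, and 1 to 350 over left-out samples, with 350 (34 higher, 316 lower) without early sample 1 and 2 without late sample 2. There Tap2 turned to 0.01 with summed UMIs, and B2m ran from -0.07 to 0.56.

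In cycling against other cells 196 genes were called, 408 with all deposited cells, 54 without the filter, 42 with thinned cells, 340 with at least 5 proliferation genes and 97 to 172 over left-out samples (97 without late sample 2, 125 without late sample 1, 124 without early sample 1). Small differences turned there: B2m, H2-D1 and Tapbp to 0.04, 0.01 and 0.00 with all deposited cells, H2-K1 to -0.12 with at least 5 proliferation genes, and Tapbp to -0.01 with that rule, with at least 2000 UMIs or with thinned cells, to -0.04 with summed UMIs and to -0.02 with centring. Over left-out samples H2-K1 ran from -0.02 to 0.15 and Tapbp from -0.03 to 0.05. The causes were not tested.

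No paired analysis was possible because the running numbers of the labels tie no organoid line to a tissue sample. TFC-like cells without any UMI of another cell type numbered 1 and 2, so that the comparison of such cells was not run. Depth limited the low members: Tap1 in tissue sample 1 rests on 1 UMI. Samples were few, and p-values measure the spread between samples only.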

Other observations

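The inducible and the constitutive catalytic subunits of the proteasome were also set side by side by cell class, as ratios of levels within a sample chosen after the values had been seen. Psmb8 per Psmb5 was 9.62 and 4.4 in endothelial-like cells and 14.3 and 12.1 in immune-like cells of tissue samples 1 and 2, against 1.32 and 1.06 in TFC-like cells and 0.414 to 1.02 in the 5 TFCO samples. Psmb5 itself was at 0.203 ± 0.137 UMIs per 10000 in endothelial-like, 0.2 ± 0.099 in immune-like and 0.235 ± 0.0099 in TFC-like cells (SD, n = 2), so that the ranges of this subunit overlapped, and the ratios rest on few UMIs of Psmb5, 3 and 4 in immune-like, 8 and 18 in endothelial-like and 3 and 19 in TFC-like cells, where Psmb8 had 4 and 23. Psmb10, the inducible partner of Psmb7, was at 1.15 and 0.944 UMIs per 10000 in endothelial-like cells, 0.209 and 1.1 in immune-like, 0.871 and 0.424 in mural-like and 0.757 and 0.764 in stromal-like cells, which overlap, and lower, at 0 and 0.122, in TFC-like cells.

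Irf1, an interferon-induced activator of class I promoters, was at 1.55 and 1.16 UMIs per 10000 in endothelial-like, 0.677 and 1.75 in immune-like, 1.47 and 0 in stromal-like, 0.289 and 0.325 in mural-like and 0.19 and 0.0175 in TFC-like cells.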
